A study of Mus musculus with 25 samples.

Results

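The D-type cyclins, their partner kinases and the Cip/Kip inhibitors were followed in sorted mouse lung and skin cells as 8 genes of 14405 in the deposited tables: Ccnd1, Ccnd2, Ccnd3, Cdk4, Cdk6, Cdkn1a, Cdkn1b and Cdkn1c. They were taken by gene symbol, and all 8 were present in both the lung table (11867 genes) and the skin table (12661 genes). The study used bulk RNA-seq of macrophages and fibroblasts from neutrophil-depleted (NP) and control (WT) C57BL/6 mice, 25 libraries in 8 groups. NP mice had the genotype Mrp8_CRE; Rosa26_DTR, so that Cre under the Mrp8 (S100a8) promoter, active mainly in neutrophils, opens a diphtheria toxin receptor at Rosa26. WT mice were Mrp8_WT; Rosa26_DTR. Mice of both genotypes therefore carried the receptor allele, and both were given diphtheria toxin into the peritoneum at 10 ug/kg for 7 days. There were 3 NP and 3 WT libraries of lung macrophages, 3 NP and 3 WT of lung fibroblasts, 4 NP and 3 WT of skin macrophages, and 3 NP and 3 WT of skin fibroblasts. Lung macrophages were sorted as CD45+ CD68+ F4/80+ CD11b-high cells lacking CD11c (interstitial macrophages), skin macrophages as CD45+ CD11b+ CD68+ F4/80+ cells, and fibroblasts as PDGFRA+ cells negative for CD31, EPCAM and CD45 that in skin were also CD90.1+. Age was not given, and the labels do not say whether libraries of a group came from separate animals, so p-values measure the spread between these libraries, which may be technical.

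Cells enter the division cycle through the D-type cyclins. Growth signals induce cyclin D1, D2 or D3 (Ccnd1, Ccnd2, Ccnd3), each of which binds CDK4 or CDK6, and the complex phosphorylates the retinoblastoma protein so that E2F factors can switch on S-phase genes. The Cip/Kip proteins p21 (Cdkn1a), p27 (Cdkn1b) and p57 (Cdkn1c) block cyclin E and cyclin A kinases and also bind cyclin D complexes. p21 is a classical p53 target, p27 is held high in resting cells largely by protein stability, and p57 is imprinted and expressed from the maternal allele. Tissue macrophages can renew themselves by local division, and fibroblasts are mostly quiescent in unwounded tissue.

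Levels are deposited normalised values, on a scale of their own for each organ, so lung and skin values were not tested against each other. The lung libraries were shallow, with 124075 to 385925 estimated reads, and 1 read was worth 2.997 to 6.81 on the deposited scale. The skin libraries held 6553115 to 27259903 estimated reads, at 0.0371 to 0.162 per read. Differences are on the scale log2(value + 1 ppm of the mean library total), which understates changes of low genes, given with their SE and a Benjamini-Hochberg adjusted p over all genes of the table (limma). A gene was called at an adjusted p below 0.05. The macrophage and fibroblast markers matched the labels in every lung library: Ptprc (CD45) was 225 to 478 in macrophages against 1.78 to 12.1 in fibroblasts, and Pdgfra was 1.498 to 14.7 against 555 to 908. In lung macrophages the neutrophil transcript S100a8 was 895, 1052 and 1175 in NP libraries, against 5155, 3741 and 10656 in WT libraries. Retnlg, also of neutrophils, was 397, 379 and 474 in NP and 2934, 2469 and 3451 in WT libraries.

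The skin controls did not all match. Control macrophage libraries 1 and 5 had Ptprc at 0.277 and 0.209, Cd68 at 0.38998 and 0.905, and Col1a1 at 15309 and 28883, a fibroblast profile. Control library 3 was the only one with a macrophage profile, with Ptprc at 362, Cd68 at 1887 and Col1a1 at 267, beside 522 to 878, 1451 to 1986 and 61.2 to 241 in the 4 NP macrophage libraries. Every skin macrophage result is therefore given as labelled and again without control libraries 1 and 5. The libraries left out were thus chosen by the measured levels of these markers and not of the cell cycle genes. With 1 control left, its spread is assumed to equal that of the other libraries. The 7 measured neutrophil markers summed to 175 to 326 in skin NP macrophages and 336 in control library 3, with 1499 and 830 in control libraries 1 and 5. They summed to 387 to 1072 in NP and 573 to 966.5 in WT skin fibroblasts. Against control library 3 and between the fibroblast groups, skin showed no fall of the size seen in lung macrophages.

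Cyclin D1 separated the cell types of the lung. Ccnd1 was 45.3, 36.7 and 44.2 in NP macrophages and 92.6, 61.4 and 26.7 in WT macrophages, whereas NP fibroblasts had 10.2, 9.72 and 1.73 and WT fibroblasts 2.73, 14.4 and 1.78. All 6 macrophage libraries lay above all 6 fibroblast libraries, which held only 0 to 2 Ccnd1 reads each. The difference between macrophages and fibroblasts was 2.97 ± 0.50 (log2, adjusted p = 1.17e-05), and 4 of the 8 genes were called in this comparison, where 36.5% of all 11867 genes were. Of the 4, 3 were higher and 1 was lower in macrophages, beside 18.5% and 18.0% of all genes. Ccnd1 was called in each of the 12 fits that left out 1 library, and its difference was 1.82 with a pseudocount of 10 ppm. In bulk samples fewer cells expressing a gene and less RNA per cell cannot be told apart. The gene (ENSMUSG00000070348, chr7:144929931-144939925, minus strand, GRCm38) shares 1100 of its 4709 merged exon bases with LTO1 on the other strand, and whether counting used strand is not given in the sources used here. Markers of other cells also differed between the cell types. The 12 lung epithelium markers summed to 11655 to 26673 in NP and 2357 to 9415 in WT macrophages, against 1743 to 5350.1 in NP and 512 to 1901 in WT fibroblasts. The 11 measured neutrophil markers summed to 2005 to 2340.3 in NP and 9376 to 19256 in WT macrophages, against 55.7 to 91.2 and 49.7 to 74.2 in NP and WT fibroblasts, with 4 of the 11 at 0 in all libraries of each fibroblast group. Of 12 immediate-early genes, which respond to cell handling, 8 were higher in macrophages. The part of these in the lung macrophage values was not tested.

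Cyclin D1 did not separate the cell types in skin. Ccnd1 was 151, 89.2, 119.5 and 59.3 in NP macrophages and 109.9, 98.4 and 116 in the 3 libraries labelled WT macrophages. NP fibroblasts had 104, 65.4 and 142 and WT fibroblasts 165, 111 and 162, so the cell types overlapped. The difference of macrophages from fibroblasts was -0.19 ± 0.26 (log2, 95% interval -0.75 to 0.37, adjusted p = 0.677), and -0.16 ± 0.30 without control libraries 1 and 5. Between NP and WT libraries Ccnd1 differed by -0.35 ± 0.48 in lung macrophages (interval -1.31 to 0.62) and -0.53 ± 0.35 in skin fibroblasts (interval -1.30 to 0.24). In skin macrophages the difference was -0.12 ± 0.36 as labelled and 0.01 ± 0.50 against control library 3 alone, and none of these was called.

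Cyclin D2 was level across the lung and split the skin. The gene (ENSMUSG00000000184, chr6:127125162-127152193, minus strand) shares 740 exon bases with the antisense genes Gm43126 and 9330179D12Rik. Its lung values were 175, 149 and 103 in NP macrophages, 201, 164 and 115 in WT macrophages, 98.7, 142 and 123 in NP fibroblasts and 131, 130.01 and 98.1 in WT fibroblasts. These groups overlapped, and the macrophage minus fibroblast difference was 0.30 ± 0.23 (log2, adjusted p = 0.333). In skin the 4 NP macrophage libraries had 77.8, 91.8, 93.4 and 50.2, while the libraries labelled WT macrophages had 381, 365 and 426 (libraries 1, 3 and 5). Skin fibroblasts had 275, 548 and 395 in NP mice and 407, 425 and 403 in WT mice. The 4 NP macrophage libraries thus stood below all 9 other skin libraries, and the macrophage-profile control was at the fibroblast level.

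Set against fibroblasts, Ccnd2 was lower in skin macrophages by a log2 difference of -1.29 ± 0.35 (adjusted p = 0.0255), and 2 of the 8 genes, the other being Cdkn1c, were called where 13.5% of the table was. Both were lower in macrophages, as were 7.77% of all genes, and 0 of 8 were higher, beside 5.77%. Without control libraries 1 and 5 it was -1.68 ± 0.35 (adjusted p = 0.002003), with the same 2 genes called beside 28.9% of the table. The call as labelled was lost when any 1 of the NP macrophage libraries 1, 2, 3 or 5 or of the NP fibroblast libraries 2, 4 or 5 was left out, at adjusted p from 0.0515 to 0.0769, and with no variance trend in the model (0.0653). The control macrophage library 3, at 365, did not share the low level.

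Between genotypes, Ccnd2 was the gene with the smallest p of all 11716 tested in skin macrophages as labelled, where 2 of the 3 controls had the fibroblast profile. It did not keep this first place against control library 3 alone. Ccnd2 averaged 78.3 ± 20.01 in NP libraries and 391 ± 31.4 in the libraries labelled WT (SD, n = 4 and 3), a log2 difference of -2.34 ± 0.30 with an interval of -3.02 to -1.66. It did not pass the threshold (limma, adjusted p = 0.0879). None of the 8 genes was called, where 0% of the table was, although 2 of the 8 and 2458 of all genes had an unadjusted p below 0.05. Against control library 3 alone the difference was -2.25 ± 0.42, at an adjusted p of 0.499, with 0 of 8 called beside 0% of the table, and 2 of 8 and 749 of all genes at an unadjusted p below 0.05. When the 2 skin cell types were fitted in 1 model of 4 groups the adjusted p was 0.00257, and without control library 3 it was 0.000441, a fit in which both controls left have the fibroblast profile. Those fits called 975 and 2429 of the 11716 genes. With the controls as labelled, the NP libraries did not overlap the WT libraries for Ccnd2 alone of the 8, in a table where 17.2% of genes had groups apart.

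The markers beside this value differed between control library 3 and the NP macrophage libraries. The 16 fibroblast markers summed to 314 to 1523 in NP macrophages and 2332 in control library 3, against 55801 to 76704 in NP and 86548 to 106515 in WT fibroblasts. The 6 measured T cell markers summed to 48.3 to 127 in NP macrophages and 236 in control library 3, and the 12 keratinocyte markers to 1625 to 4272 and 7460.3. Their part in the Ccnd2 value was not tested. Skin fibroblasts gave a Ccnd2 difference of -0.07 ± 0.29 between NP and WT libraries (interval -0.71 to 0.56), and the difference between the cell types in that effect was -2.27 ± 0.44 (limma, adjusted p = 0.214), with 0 of 8 called beside 0% of the table, and 2 of 8 and 1607 of 12574 genes at an unadjusted p below 0.05. Without control libraries 1 and 5 it was -2.17 ± 0.52 (adjusted p = 0.963). In lung the NP minus WT difference of Ccnd2 was -0.16 ± 0.31 in macrophages and 0.01 ± 0.32 in fibroblasts.

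Cyclin D3, the D-type cyclin best known from lymphoid and myeloid cells, showed no called difference. The gene (ENSMUSG00000034165, chr17:47505051-47599691, plus strand) shares 361 exon bases with Bysl on the other strand. Lung values were 141, 58.95 and 79.4 in NP macrophages, 64.96, 58.4 and 68.3 in WT macrophages, 47.6, 64.1 and 36.3 in NP fibroblasts and 57.3, 43.3 and 40.999 in WT fibroblasts, with 1 high NP macrophage library. Macrophages and fibroblasts differed by 0.64 ± 0.29 (log2, adjusted p = 0.0854). Between NP and WT it differed by 0.45 ± 0.39 in lung macrophages and 0.04 ± 0.44 in lung fibroblasts, uncalled. In skin, NP macrophages had 199, 186, 101 and 163. Control library 3 had 68.3, below all 4 of them, and control libraries 1 and 5 had 129 and 170.1. The NP minus WT difference was 0.45 ± 0.39 as labelled and 1.19 ± 0.42 against library 3 alone (unadjusted p = 0.0179, limma adjusted p = 0.678). Skin fibroblasts had 130.4, 134 and 145 in NP and 78.9, 164 and 154 in WT libraries, and differed between genotypes by 0.12 ± 0.34. Skin macrophages minus fibroblasts was 0.05 ± 0.27 as labelled and -0.12 ± 0.29 without control libraries 1 and 5.

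**Figure D1:**
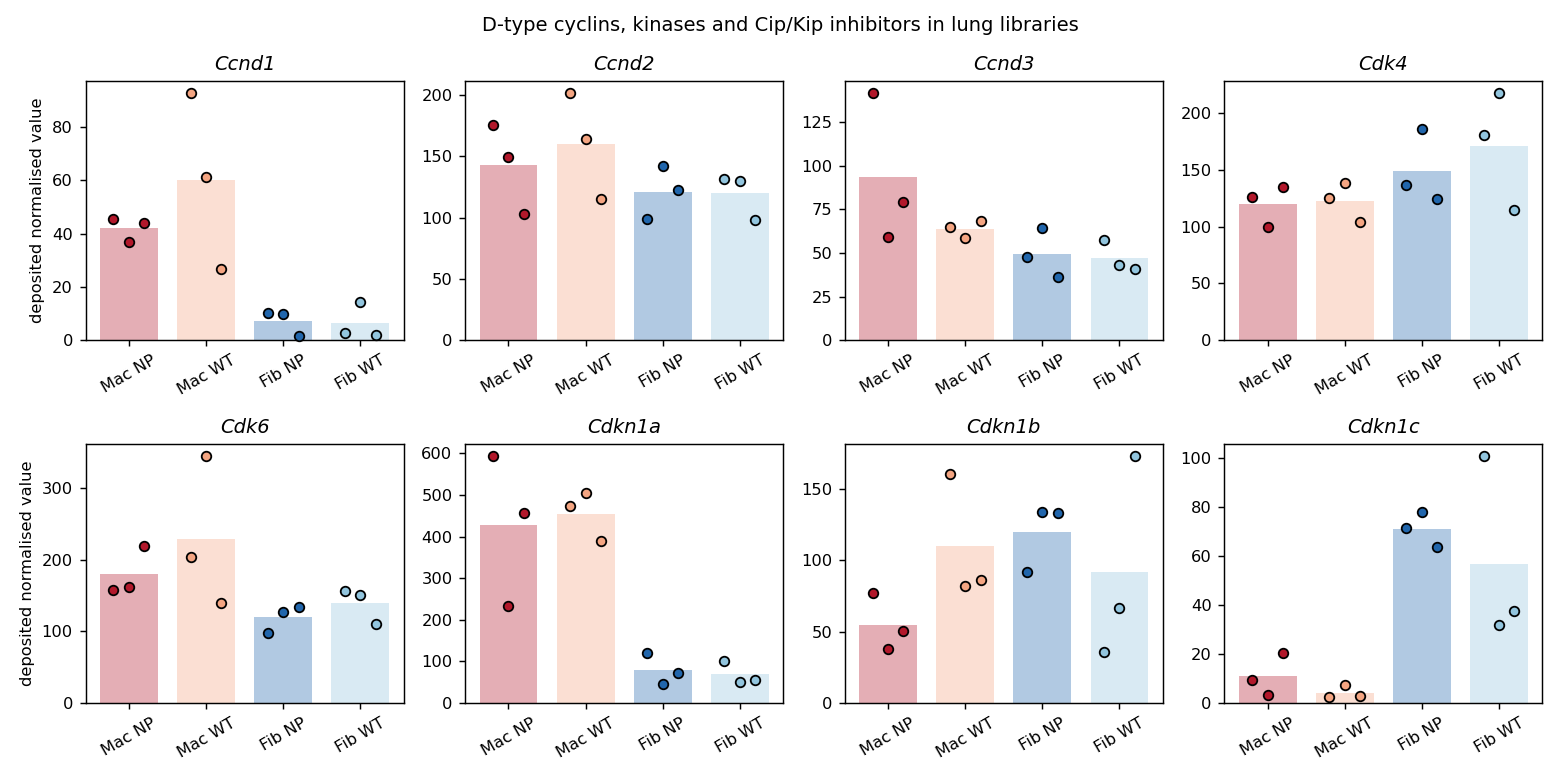
Deposited normalised values (y axis, linear, own scale in each panel) of the 8 genes in the 12 lung libraries, with NP left of WT for macrophages (red) and fibroblasts (blue). Points are libraries and bars group means. Ccnd1 and Cdkn1a are high in macrophages and Cdkn1c in fibroblasts, and for Cdkn1b the 3 NP macrophage libraries lie below the 3 WT ones.

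Divided by merged exon length, which allows genes to be compared, the D-type cyclins made up different mixtures. In lung macrophages Ccnd2 held on average 43.8% (NP) and 46.2% (WT) of the summed level per kilobase of the 3 cyclins, and Ccnd1 26.4% and 32.6%. In lung fibroblasts Ccnd2 held 64.7% (NP) and 65.6% (WT), and Ccnd1 7.51% and 6.42%. Skin NP macrophages had the smallest Ccnd2 share, 17.1% (range 13.1% to 21.2%), against 50.7% to 57.5% in the libraries labelled WT macrophages. Skin fibroblasts had 52.7% (NP) and 48.8% (WT) Ccnd2. Ccnd2 ranked first in the lung groups and in skin fibroblasts by merged exons. With the longest transcript as the length, Ccnd3 passed it in lung NP macrophages (40.5% against 39.4%), and in skin NP macrophages Ccnd3 (51.3%) passed Ccnd1 (33.5%), where merged exons gave 38.5% and 44.4%. By merged exons the Ccnd2 range lay above those of Ccnd1 and Ccnd3 in all 4 lung groups, in both skin fibroblast groups and in the libraries labelled skin WT macrophages, and below both in skin NP macrophages. By the longest transcript the Ccnd2 range (33.5% to 48.4%) overlapped that of Ccnd3 (31.4% to 47.9%) in lung NP macrophages. By merged exons the ranges of Ccnd1 and Ccnd3 overlapped in both lung macrophage groups, in skin NP macrophages and in skin NP fibroblasts.

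**Figure D2:**
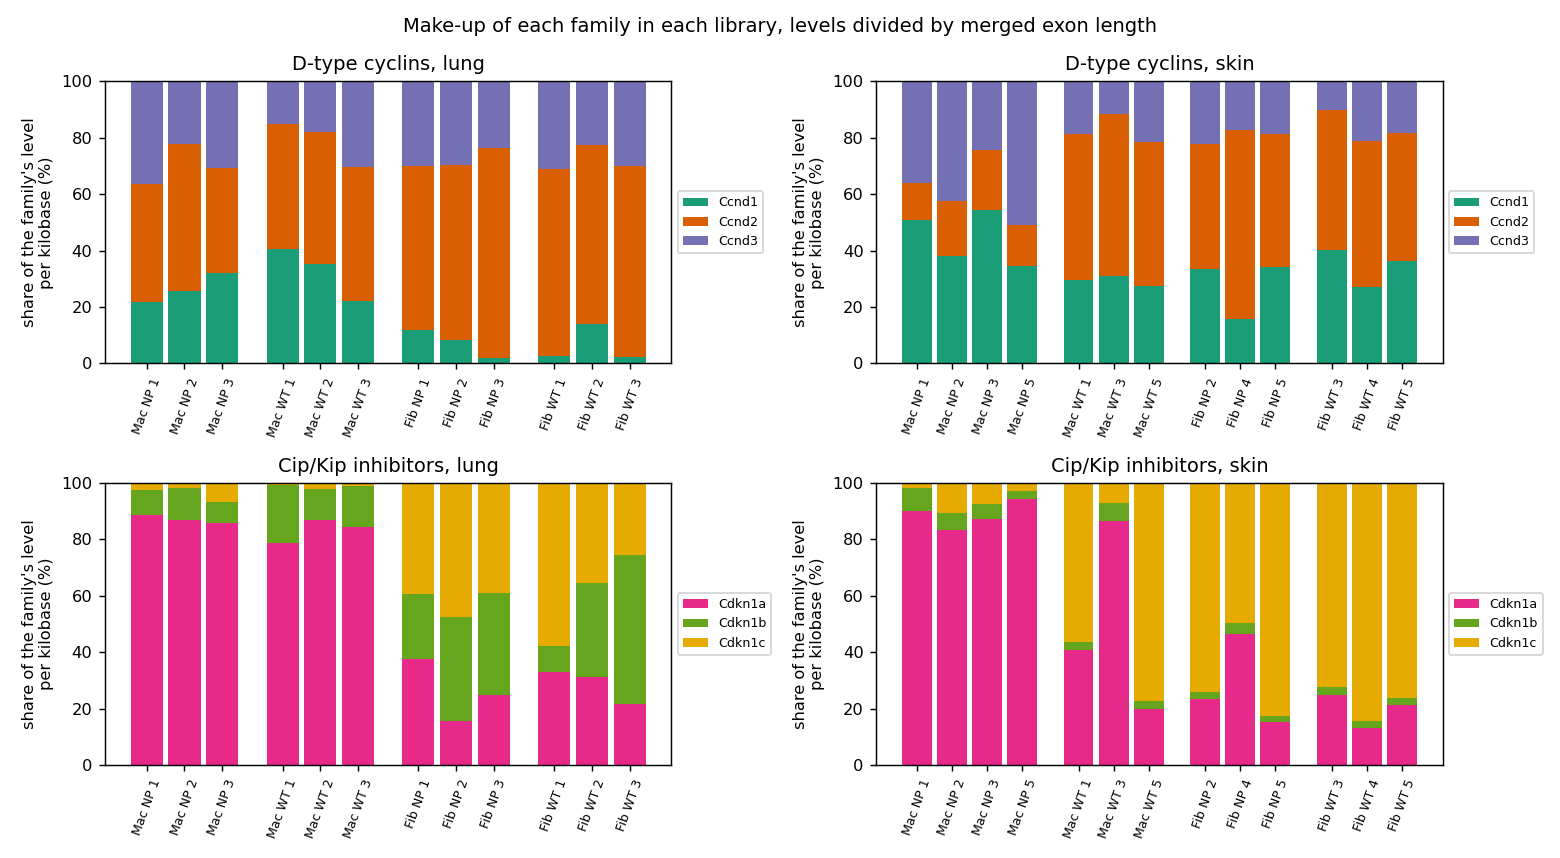
Share of each gene (y axis, percent) in the summed level per kilobase of its family, 1 bar per library, for the 3 D-type cyclins (top) and the 3 Cip/Kip inhibitors (bottom) in lung (left) and skin (right). Cdkn1a fills most of the macrophage bars and Cdkn1c much of the fibroblast bars, and control macrophage libraries 1 and 5 of skin look like fibroblast bars.

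The kinase Cdk4, which pairs with all 3 D-type cyclins, was called in no comparison. It was 126, 99.7 and 135 in NP and 125, 138 and 104 in WT lung macrophages, and 137, 186 and 124 in NP and 181, 217 and 114 in WT lung fibroblasts. In skin all 13 libraries lay between 96.3 and 160.1. The macrophage minus fibroblast difference was -0.37 ± 0.23 in lung (interval -0.84 to 0.10) and -0.05 ± 0.20 in skin (interval -0.47 to 0.37), and -0.01 ± 0.22 in skin without control libraries 1 and 5. The interval of the NP minus WT difference was -0.67 to 0.62 in lung macrophages, -0.76 to 0.42 in lung fibroblasts, -0.59 to 0.62 in skin macrophages and -0.60 to 0.76 in skin fibroblasts (log2). Against control library 3 alone the skin macrophage interval was -0.92 to 0.56. Cdk4 (ENSMUSG00000006728, chr10:127063534-127067920, plus strand) shares 641 exon bases with Tspan31 on the other strand.

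The Cdk4 start region is shown because Myc, a factor that binds the E-box CACGTG, is among the growth signal genes that differed between the lung cell types. The 250 bases before the RefSeq start (GRCm38.p6, chr10:127063285-127063534, plus strand) hold 4 copies, in capitals.
Cdk4: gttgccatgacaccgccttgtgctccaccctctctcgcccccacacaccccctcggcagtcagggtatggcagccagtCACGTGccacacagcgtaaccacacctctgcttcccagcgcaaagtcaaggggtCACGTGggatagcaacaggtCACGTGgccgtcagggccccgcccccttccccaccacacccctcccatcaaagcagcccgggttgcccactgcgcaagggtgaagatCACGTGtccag
The motif reads the same on both strands, and the stretch also holds 1 GC box, GGGCGG, on either strand. Of 32851 RefSeq start regions of this length 6.02% hold it at least once and 0.0213% hold 4 or more copies. A match is only a description of these letters. Myc was higher in lung macrophages than in lung fibroblasts (2.37 ± 0.54, limma adjusted p = 6.00e-04), while Cdk4 had no called difference there. Myc held only 33 reads over the lung macrophage and 4 over the lung fibroblast libraries.

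Cdk6 (ENSMUSG00000040274, chr5:3341485-3531008, plus strand), the other D-type cyclin kinase, was 157, 162 and 219 in NP and 203, 344 and 139.7 in WT lung macrophages, against 97.8, 126 and 134 in NP and 156, 151 and 111 in WT lung fibroblasts. WT fibroblast libraries 1 and 2 lay above the lowest WT macrophage library, so the cell types overlapped. The macrophage minus fibroblast difference of 0.61 ± 0.23 was only just called (adjusted p = 0.0401). It was not called (adjusted p from 0.0506 to 0.147) without NP macrophage library 3, WT macrophage library 2, NP fibroblast libraries 1 or 2, or WT fibroblast library 3, each left out alone, nor under quantile normalisation (0.128) or with no variance trend (0.131). In skin, Cdk6 was 74.9, 52.8, 50.6 and 57.5 in NP macrophages. The control macrophage libraries had 21.5, 94.96 and 32.4, so that library 3 was the highest of all 13 skin libraries and libraries 1 and 5 the lowest. Its NP minus WT difference changed sign with the controls, being 0.51 ± 0.50 as labelled and -0.70 ± 0.43 against library 3 alone, and neither was called. Skin fibroblasts had 44.7, 80.97 and 43.7 in NP and 70.5, 41.8 and 39.01 in WT mice. The macrophage minus fibroblast difference in skin was -0.06 ± 0.34 as labelled and 0.36 ± 0.31 without control libraries 1 and 5. Between genotypes Cdk6 differed by -0.27 ± 0.30 in lung macrophages, -0.21 ± 0.31 in lung fibroblasts and 0.15 ± 0.43 in skin fibroblasts, uncalled. Per kilobase of merged exons Cdk4 held 74.2% and 70.7% of the summed kinase level in NP and WT lung macrophages, 84.01% and 83.7% in NP and WT lung fibroblasts, and 85.4% to 95.6% in every skin library.

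The inhibitor p21 was the gene of the family that most separated lung macrophages from lung fibroblasts by p. Cdkn1a (ENSMUSG00000023067, chr17:29090976-29100727, plus strand) was 594, 233 and 456 in NP macrophages and 472, 505 and 389 in WT macrophages. It was 119, 44.7 and 70.8 in NP fibroblasts and 101, 49.1 and 55.3 in WT fibroblasts, so that the lowest macrophage library, at 233, lay above the highest fibroblast library, at 119. The difference was 2.61 ± 0.26 (log2, adjusted p = 4.10e-10). In skin the macrophage libraries spanned 246 to 296 in NP mice and had 436, 280.01 and 170.2 in the 3 controls, and fibroblasts had 242, 270.05 and 151 in NP and 240.3, 133 and 201 in WT mice. The cell types overlapped and the difference was 0.43 ± 0.24 (interval -0.09 to 0.94). Between NP and WT libraries Cdkn1a differed by -0.18 ± 0.28 in lung macrophages, 0.15 ± 0.39 in lung fibroblasts, -0.05 ± 0.34 in skin macrophages and 0.21 ± 0.33 in skin fibroblasts, with no call. Without control libraries 1 and 5 the skin values were -0.07 ± 0.28 between genotypes in macrophages and 0.39 ± 0.22 between cell types (adjusted p = 0.213).

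The start regions of Cdkn1a are shown because its RefSeq transcripts begin at a pair of places with different letters. The first (GRCm38.p6, chr17:29090729-29090978, plus strand) holds a pair of CATG cores, CATGNNNNNNCATG, the spacing of cores in a pair of adjacent p53 half-sites, 48 bases before the start, in capitals, and the second (chr17:29093519-29093768) holds 2 copies of the GC box GGGCGG, in capitals.
Cdkn1a start 1: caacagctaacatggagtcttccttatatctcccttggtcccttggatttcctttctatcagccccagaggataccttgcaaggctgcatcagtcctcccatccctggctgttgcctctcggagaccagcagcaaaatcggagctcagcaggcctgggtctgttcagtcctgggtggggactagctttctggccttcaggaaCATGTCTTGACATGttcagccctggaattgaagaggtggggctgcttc
Cdkn1a start 2: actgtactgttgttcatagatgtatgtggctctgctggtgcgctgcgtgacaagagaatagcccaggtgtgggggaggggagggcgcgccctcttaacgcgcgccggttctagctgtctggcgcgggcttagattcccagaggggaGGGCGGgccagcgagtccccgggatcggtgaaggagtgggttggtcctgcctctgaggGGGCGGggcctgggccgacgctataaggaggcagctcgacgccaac
CATGNNNNNNCATG is in 0.490% of 32851 start regions and GGGCGG in 32.7%, counting both strands. The tables give 1 value per gene, so use of the 2 starts was not measured. The same motifs and CCAAT (in 33.8% of start regions) were searched in the RefSeq start regions of Ccnd3, Cdk6 and Cdkn1b, where Ccnd3 held 2 GGGCGG at 1 start and 1 GGGCGG and 1 CCAAT at another, Cdk6 held 1 CACGTG and Cdkn1b held 2 CCAAT and 1 GGGCGG.

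Other p53 targets did not move as 1 group with Cdkn1a between the lung cell types. Of 15 tested, 5 were higher and 5 lower in macrophages than in fibroblasts, beside 18.5% and 18.0% of all genes. The median log2 difference was 0.25 beside -0.09 over all genes. Bax, a cell death effector, was higher (1.83 ± 0.25, limma adjusted p = 2.25e-07), as was the stress cytokine Gdf15 (3.81 ± 0.63, adjusted p = 7.47e-06). Gdf15 held 130.18 reads over the lung macrophage and 2 over the lung fibroblast libraries, so it could hardly come out lower in macrophages. Phlda3, an inhibitor of AKT, was lower (-2.81 ± 0.45, adjusted p = 4.65e-06), and Perp, a plasma membrane protein of the death response, was higher (2.10 ± 0.50, adjusted p = 0.00101). Perp is also on the keratinocyte marker list, and it held 22 reads over the lung macrophage and 2 over the lung fibroblast libraries. The part of epithelial cells in its value was not tested. In skin as labelled, Btg2, an anti-proliferative early gene, was higher (1.27 ± 0.27, adjusted p = 0.0145), Gdf15 was higher (2.10 ± 0.60, adjusted p = 0.0296) and Phlda3 was lower (-2.12 ± 0.52, adjusted p = 0.0164), 3 of 15 tested, beside 13.5% of all genes. Without control libraries 1 and 5 there were 3 higher and 1 lower, with Bax added (1.05 ± 0.26, adjusted p = 0.00622), beside 28.9% of all genes called. Neither count stands apart from the share of the table.

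The inhibitor p27 gave the only lung value whose genotypes did not overlap. Cdkn1b (ENSMUSG00000003031, chr6:134920401-134925513, plus strand) was 76.9, 37.8 and 50.1 in NP macrophages and 160.5, 82.2 and 86.1 in WT macrophages. Lung fibroblasts had 91.9, 134 and 133 in NP mice and 35.5, 66.7 and 173 in WT mice, the widest spread of any group for this gene. In lung macrophages the NP minus WT difference was -0.97 ± 0.39 (log2, unadjusted p = 0.0176, limma adjusted p = 0.464), which was not called. None of the 8 genes was called in lung macrophages, where 0.497% of the table was (0.0674% higher and 0.430% lower), and 1 of the 8 had an unadjusted p below 0.05, beside 942 of 11867 genes. Groups apart, as for Cdkn1b, were found in 12.2% of genes. Each Cdkn1b value rests on 5.59 to 12 estimated reads in NP and 14 to 35 in WT macrophage libraries.

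Markers of other cells differed between the same libraries. The 11 measured neutrophil markers summed to 2005 to 2340.3 in NP and 9376 to 19256 in WT lung macrophage libraries, the 12 lung epithelium markers to 11655 to 26673 in NP and 2357 to 9415 in WT, and the 6 measured B and plasma cell markers to 248 to 759.6 and 829 to 2235. No marker of the 3 lists was at 0 in all libraries of either group, and their part in the Cdkn1b value was not tested. In lung fibroblasts the Cdkn1b difference was 0.66 ± 0.36, and it was 0.132 without WT library 1 and 1.26 without WT library 3. The count was 0 of 8 genes called beside 0.00843% of the table, 0 of 8 with groups apart beside 9.20%, and 0 of 8 at an unadjusted p below 0.05 (limma). The difference between macrophages and fibroblasts in the NP effect was -1.63 ± 0.64 (unadjusted p = 0.0159, adjusted p = 0.849), with 0 of 8 called beside 0.0169% of the table.

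In skin, on its own scale, Cdkn1b was 29.03, 23.5, 22.005 and 11.04 in NP macrophages and 40.01, 27.2 and 32.6 in the libraries labelled WT macrophages. Fibroblasts had 29.7, 28.6 and 25.9 in NP mice and 34.2, 31.9 and 32.5 in WT mice, where the NP libraries lay below the WT ones by a small margin and 8.44% of genes had groups apart. The NP minus WT difference was -0.22 ± 0.48 in skin fibroblasts and -0.67 ± 0.49 in skin macrophages, where it was -0.41 ± 0.82 against control library 3 alone. None of the 8 genes was called in skin fibroblasts, beside 0% of the table, with 0 of 8 and 283 of 11780 genes at an unadjusted p below 0.05 (limma). The macrophage minus fibroblast difference was -0.33 ± 0.34 in lung (interval -1.03 to 0.37) and -0.24 ± 0.32 in skin (interval -0.92 to 0.44), or -0.39 ± 0.37 without control libraries 1 and 5, and none of these was called.

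**Figure D3:**
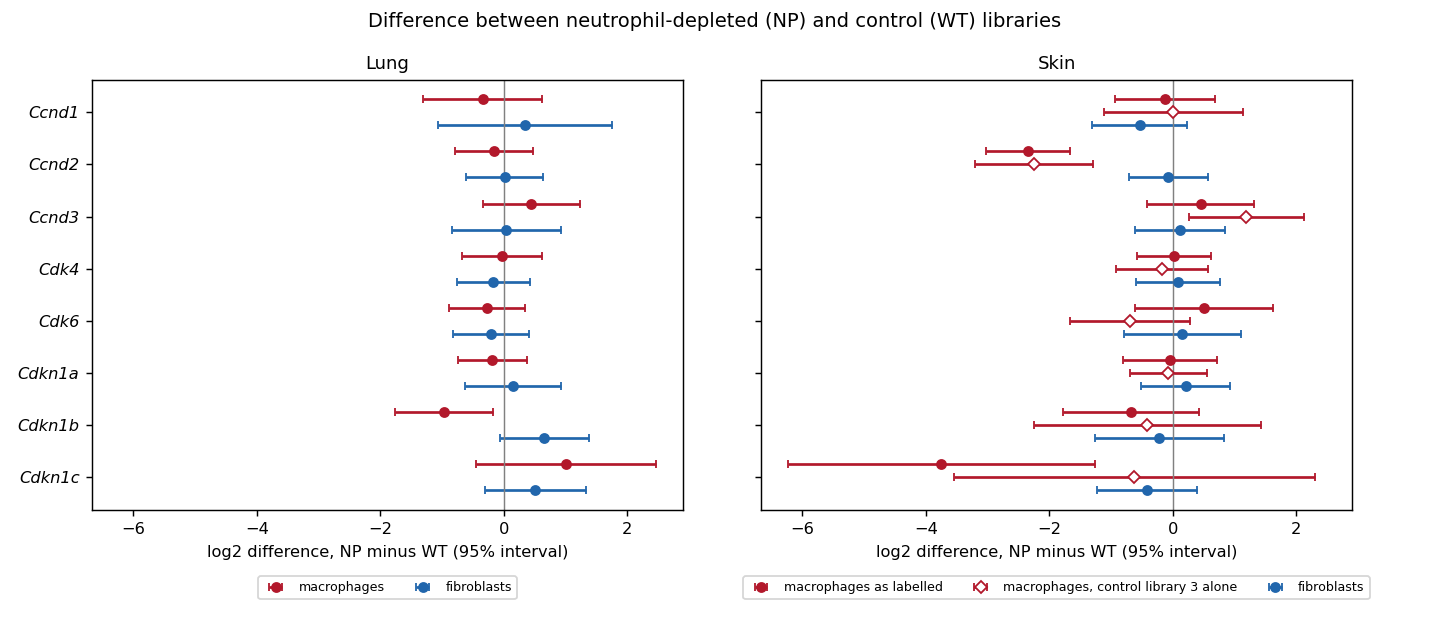
Log2 difference of NP minus WT (x axis) for each gene in lung (left) and skin (right), with 95% intervals from limma, for macrophages (red) and fibroblasts (blue). Open diamonds use skin control library 3 alone. In skin macrophages Ccnd2 is at -2.34 as labelled and -2.25 against library 3 alone, and Cdkn1c at -3.75 and -0.62.

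The inhibitor p57 marked fibroblasts in both organs. Lung Cdkn1c was 9.23, 3.103 and 20.6 in NP and 2.26, 7.49 and 2.97 in WT macrophages, against 71.5, 78.04 and 63.9 in NP and 101, 31.8 and 37.4 in WT fibroblasts. All 6 macrophage libraries lay below all 6 fibroblast libraries, and held 0 to 3 reads each. The macrophage minus fibroblast difference was -3.14 ± 0.46 (log2, adjusted p = 1.05e-06), and -2.04 with a pseudocount of 10 ppm. In skin, NP macrophages had 2.99, 18.2, 13.3 and 5.501 and control library 3 had 13.1, while control libraries 1 and 5 had 345 and 383. Skin fibroblasts had 438, 166 and 462 in NP mice, with library 4 low, and 403, 485 and 415 in WT mice. The difference between skin cell types was -3.59 ± 0.76 (adjusted p = 0.0145) as labelled and -5.08 ± 0.42 (adjusted p = 3.24e-07) without control libraries 1 and 5. Cdkn1c (ENSMUSG00000037664, chr7:143458339-143461050, minus strand) shares 625 of its 2039 exon bases with the antisense gene Gm44732.

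Between genotypes the skin macrophage value of Cdkn1c turned on the control libraries. The NP minus WT difference was -3.75 ± 1.11 (adjusted p = 0.104) as labelled and -0.62 ± 1.30 (adjusted p = 0.924) against library 3 alone, whose value lay inside the NP range. It was called in the model of 4 groups (adjusted p = 0.0194) and without control library 3 (-5.31, adjusted p = 0.000262), the same fits that called 975 and 2429 of all genes. Libraries 1 and 5, which carried the difference, summed to 94041 and 106871 over the 16 fibroblast markers. The difference between cell types in the NP effect was likewise -3.33 ± 1.29 as labelled and -0.20 ± 0.97 without them. In skin fibroblasts the NP minus WT difference was -0.42 ± 0.37 and in lung fibroblasts 0.51 ± 0.41, neither called. In lung macrophages 4 NP reads stood against 2 WT reads, a ratio of 2.72 after library size with a 95% counting interval of 0.390 to 30.1. For Ccnd1 in lung fibroblasts 3 NP reads stood against 2 WT reads, a ratio of 1.35 (0.155 to 16.2). These intervals cover counting error only, and no difference between genotypes was detectable at that depth.

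Per kilobase of merged exons, Cdkn1a held 87.2% (NP) and 83.2% (WT) of the 3 Cip/Kip genes in lung macrophages, and 26.1% and 28.7% in lung fibroblasts. Cdkn1c held 3.73% and 1.34% in lung macrophages, and 42.03% and 39.6% in lung fibroblasts. In skin NP macrophages Cdkn1a held 88.6%, and Cdkn1c held 68.8% in NP and 77.6% in WT skin fibroblasts. In lung WT fibroblasts the ranges of the 3 inhibitors overlapped one another, and in lung NP fibroblasts Cdkn1c (38.9% to 47.7%) lay just above Cdkn1a (15.7% to 37.8%) and Cdkn1b (22.7% to 36.7%). By the longest transcript Cdkn1c (32.7% to 44.6%) and Cdkn1a (23.4% to 49.8%) overlapped in lung NP fibroblasts, and in lung WT fibroblasts the order of the means turned, with Cdkn1a at 39.6% and Cdkn1c at 34.1%. In skin fibroblasts the Cdkn1b range was the lowest and the Cdkn1c range the highest in both genotypes by merged exons. By the longest transcript Cdkn1c (39.1% to 75.7%) overlapped Cdkn1a (22.6% to 58.1%) in skin NP fibroblasts.

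**Figure D4:**
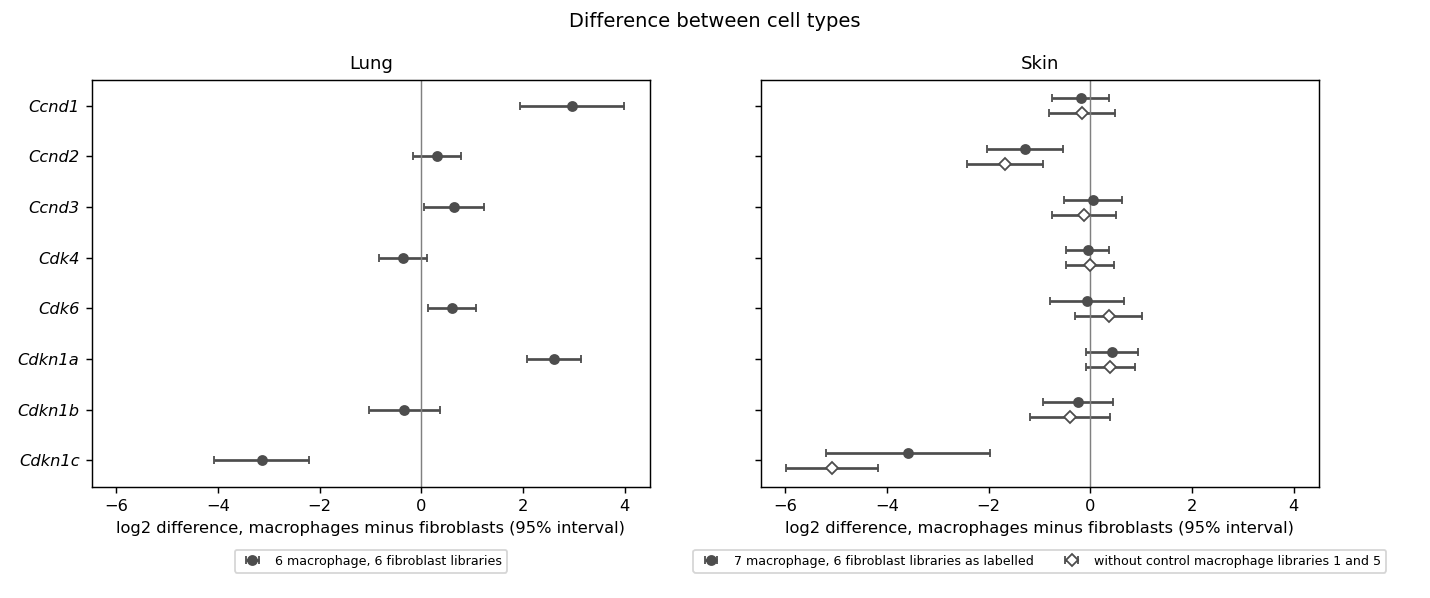
Log2 difference of macrophages minus fibroblasts (x axis) for each gene in lung (left) and skin (right), with 95% intervals from limma. Open diamonds leave out skin control macrophage libraries 1 and 5. Ccnd1 at 2.97 and Cdkn1a at 2.61 in lung have intervals far above 0, and Cdkn1c lies far below 0 in both organs.

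**Figure D5:**
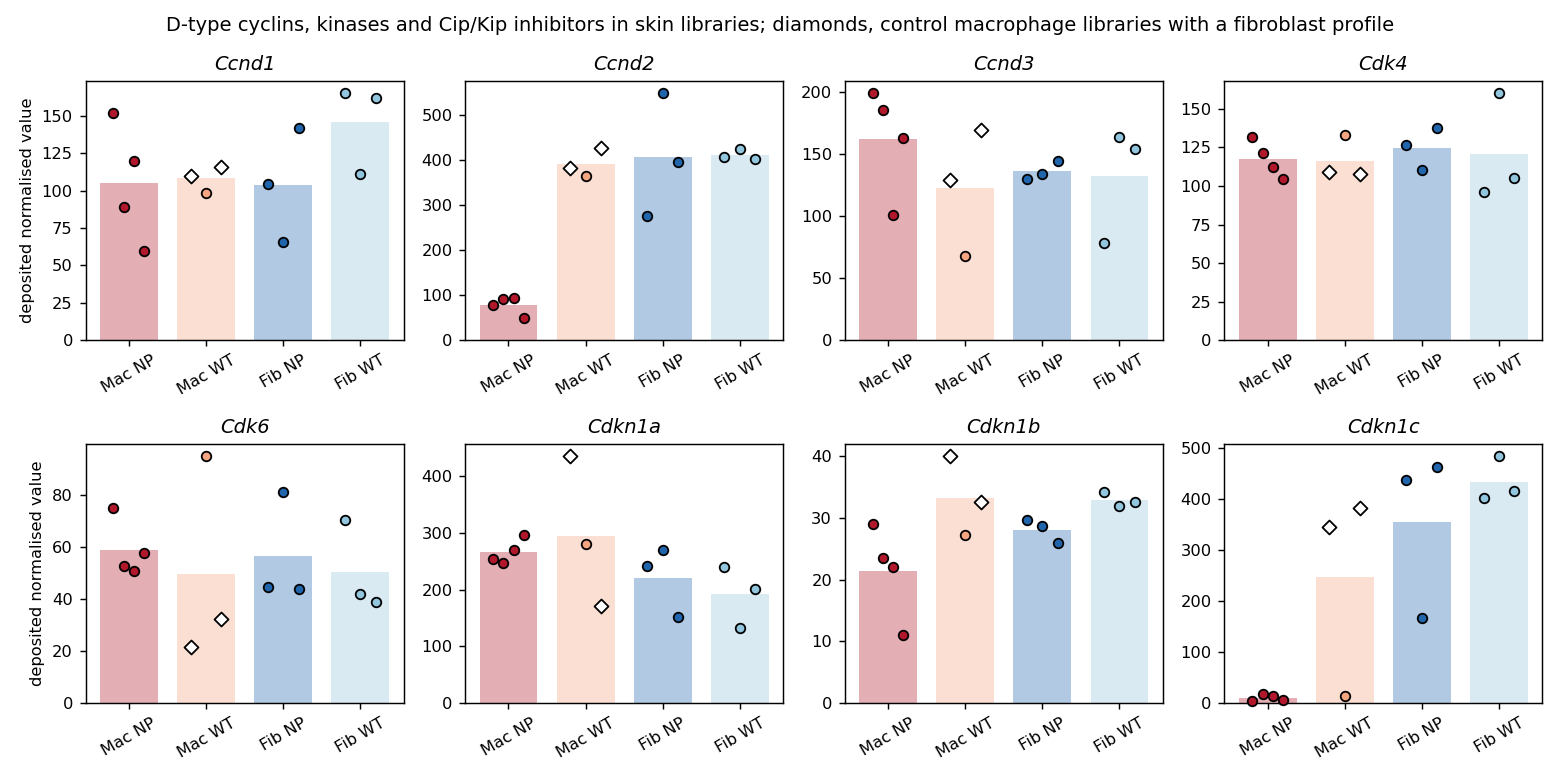
Deposited normalised values (y axis, linear, own scale in each panel) of the 8 genes in the 13 skin libraries, with NP left of WT for macrophages (red) and fibroblasts (blue). Points are libraries, bars group means as labelled, and diamonds the control macrophage libraries 1 and 5. The 4 NP macrophage libraries lie at 50.2 to 93.4 for Ccnd2, and control library 3 at 365.

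Imprinted growth genes listed with Cdkn1c were lower in macrophages where they were called. In lung 4 of the 4 tested were lower in macrophages than in fibroblasts (median -2.65, beside -0.09 over all genes), where 18.0% of all genes were called lower: Grb10, an adaptor that restrains insulin signalling (-4.05 ± 0.43, adjusted p = 1.55e-09), Igf2r, which clears IGF2 (-2.80 ± 0.46, adjusted p = 8.92e-06), Ndn (-2.51 ± 0.45, adjusted p = 3.10e-05) and Peg3 (-2.04 ± 0.50, adjusted p = 0.00125). The rest of the list was not tested in lung. Reads over all macrophage and all fibroblast libraries were 1 and 86 for Grb10, 4 and 57 for Igf2r, 0 and 25 for Ndn and 2 and 28 for Peg3. Measured through the fibroblasts, these genes could hardly come out higher in macrophages, so the lung count is no support for a shared pattern. In skin 7 of 10 were lower as labelled (median -3.69), where 7.77% of all genes were called lower, led by Mest (-4.26 ± 0.82, adjusted p = 0.0145), the non-coding RNA Meg3 (-3.50 ± 0.73, adjusted p = 0.0145), the growth factor Igf2 (-3.88 ± 0.84, adjusted p = 0.0145) and Peg3 (-4.42 ± 0.99, adjusted p = 0.0146). All 10 were lower without control libraries 1 and 5 (median -5.22, beside -0.15 over all genes), where 28.9% of all genes were called in either direction. Skin genes too could enter the test through the fibroblast libraries alone, so the skin counts are no support for a shared pattern either. Between NP and WT none of the tested genes of this list was called in any of the 4 cell groups.

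Most tested genes of S phase and mitosis were higher in lung macrophages, the cells with more Ccnd1 and more Cdkn1a. Of 20 tested, out of 25 listed, 15 were higher and 0 lower than in fibroblasts, where 18.5% of all genes were higher and 18.0% lower (median 1.54, beside -0.09 over all genes). Among them were the ubiquitin-conjugating enzyme Ube2c (2.81 ± 0.51, adjusted p = 3.19e-05), the mitotic cyclin Ccnb1 (2.63 ± 0.51, adjusted p = 8.59e-05), the mitotic kinase Cdk1 (2.33 ± 0.46, adjusted p = 1.20e-04) and the replication helicase subunit Mcm3 (2.52 ± 0.51, adjusted p = 1.44e-04). Reads over all lung macrophage and all lung fibroblast libraries were 49.84 and 2.92 for Ube2c, 38 and 1.71 for Ccnb1, 26 and 3 for Cdk1 and 31 and 2 for Mcm3. Birc5 (60.56 and 23.21) and Pcna (57.11 and 29.01) had more fibroblast reads than those genes, though still fewer than in macrophages. Genes measured almost only in macrophages could hardly come out lower there, so the count of 0 lower was partly fixed by detection. In skin 0 of 25 were called as labelled, where 13.5% of all genes were (median 0.60, beside -0.09). Without control libraries 1 and 5, where 28.9% of all genes were called, 3 of 25 were, a smaller share than of the table: the DNA clamp Pcna (0.98 ± 0.23, adjusted p = 0.00532), Top2a (1.63 ± 0.51, adjusted p = 0.0274) and Mcm5 (1.32 ± 0.47, adjusted p = 0.0486). Of the cyclin E and A list with Cdk2, Ccna2 (2.03 ± 0.47, adjusted p = 7.60e-04) and Ccne2 (1.58 ± 0.52, adjusted p = 0.0154) were higher in lung macrophages, 2 of 4 tested. Of the 3 pocket proteins tested, the retinoblastoma gene Rb1 was higher in macrophages of lung (1.60 ± 0.46, adjusted p = 0.00652) and skin (1.35 ± 0.40, adjusted p = 0.0368), and Rbl1 in lung (1.44 ± 0.47, adjusted p = 0.0148). E2f2 (1.56 ± 0.49, adjusted p = 0.0115) was the 1 gene called of 5 tested in the E2F list in lung, where 36.5% of all genes were called. In these lists too the lung reads were few in fibroblasts, at 14 in macrophages and 0 in fibroblasts for E2f2, 10 and 1 for Rbl1 and 14 and 1.99 for Ccne2. In skin without control libraries 1 and 5, where 28.9% of all genes were called, the counts were 2 of 3 pocket proteins, with Rb1 (1.56 ± 0.45, adjusted p = 0.0173) and Rbl1 (2.27 ± 0.75, adjusted p = 0.0328), 1 of 10 in the E2F list, with E2f1 (2.46 ± 0.66, adjusted p = 0.0112), and 1 of 4 in the cyclin E and A list, with Ccna2 (3.25 ± 0.89, adjusted p = 0.0122), each higher in macrophages.

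The other inhibitors and regulators split. Beside the counts that follow, 36.5% of all genes were called between cell types in lung, 13.5% in skin as labelled and 28.9% without control libraries 1 and 5. No test was run on the counts of these small lists. Of the INK4 inhibitors, which bind CDK4 and CDK6 directly, Cdkn2c (p18) was lower in lung macrophages (-3.28 ± 0.48, adjusted p = 9.29e-07), 1 of 2 tested. In skin none of 3 tested was called. Cks1b, a cofactor of p27 degradation, was higher in lung macrophages (1.72 ± 0.41, adjusted p = 9.72e-04), 1 of 4 tested in its list. Foxo3 (-1.91 ± 0.30, adjusted p = 3.09e-06) and Foxo1 (-1.85 ± 0.37, adjusted p = 1.45e-04), transcription factors that can induce Cdkn1b, were lower, 2 of 3. Cdk7, the kinase that activates CDKs, was lower (-2.49 ± 0.45, adjusted p = 3.66e-05), 1 of 3. Of growth signal regulators of the D-type cyclins 4 of 7 were higher in lung macrophages, Myc as given above, Junb (0.97 ± 0.23, adjusted p = 0.00108), Ets2 (0.90 ± 0.32, adjusted p = 0.0253) and Tcf7l2 (0.47 ± 0.19, adjusted p = 0.0493). Junb is also on the list of immediate-early genes, which respond to cell handling. In skin, Tcf7l2 (-2.26 ± 0.55, adjusted p = 0.0166) and the beta-catenin gene Ctnnb1 (-1.11 ± 0.35, adjusted p = 0.04604), both of the Wnt pathway, were lower in macrophages, 2 of 7, and the same 2 were without control libraries 1 and 5. Across all lists and all 4 cell groups 1 gene was called between NP and WT: Ets2, a growth-responsive transcription factor, lower in NP lung macrophages (-1.76 ± 0.36, adjusted p = 0.00607), in the libraries whose neutrophil markers also differed as given above. In that comparison 0.497% of all genes were called. The part of those markers in the Ets2 value was not tested.

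Genes with the most similar pattern were found by Pearson r of log2 values over all libraries of an organ, as a description. Both cell types, both genotypes and libraries of unlike depth were pooled. The r values therefore include the difference between cell types and do not describe likeness within 1 cell type. In lung (12 libraries, 5756 genes searched) Ccnd1 was closest to Sema4a (r = 0.974) and St8sia4 (0.969), Cdkn1a to Jpt1 (0.968) and the chemokine Ccl3 (0.966), and Cdkn1c to Igsf3 (0.982) and Pmp22 (0.965). In skin (13 libraries, 6536 genes) Cdkn1c was closest to the growth hormone receptor Ghr (0.993) and Mxra8 (0.989), and Ccnd2 to Gstm2 (0.964) and S100a16 (0.961). The best partner of Cdk4 in skin reached 0.714 (Vhl), the lowest best value of the 8 genes in either organ.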

How the data were processed

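RNA was amplified with the Ovation Single Cell RNA-Seq kit and read as single ends, per the labels' protocols. The submitters' processing notes name CASAVA 1.8, cutadapt 1.7.1, RSEM 1.7.1, limma 3.46 and the build mm10, with no role or order, and how the values were normalised is not given. The values the authors deposited are a normalised signal, not counts: each library's values follow (reads + 0.5) times a constant, and taking its lowest value as 0.5 reads gave whole reads (tolerance 0.01) for 70.0% to 82.2% of lung genes and 27.4% to 58.0% of skin genes. Count models were therefore not used, and read numbers are estimates.

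Gene IDs were matched to symbols with GENCODE M21 (GRCm38): 11829 of 11867 lung and 12641 of 12661 skin IDs matched. Genes at 1 ppm or more of the library total in as many libraries as the smaller group were tested, on log2(value + 1 ppm of the mean library total, 1.04 in lung and 1.001 in skin), with limma 3.58.1 (two-sided, variance trend, R 4.3.3) and Benjamini-Hochberg adjustment over all genes of the fit. NP and WT were compared within each organ and cell type on those 2 groups alone, cell types over all libraries of an organ with genotype as a covariate, and the difference of the NP effect between cell types as a contrast in a model of 4 groups. The alternatives were other pseudocounts, filters and scalings, no variance trend, the replicate number as a block, a model of 4 groups, each library left out, and the longest transcript for lengths. Intervals are 95%. Cell cycle lists are described by counts and medians, naming at most 4 called genes a list by lowest p. The 8 genes, the lists and the library exclusions were chosen with earlier results of these data known. The 2 control macrophage libraries left out in the alternative were picked by macrophage and fibroblast markers, and 1 of them has a title that names fibroblasts beside a macrophage cell type label. Start regions are RefSeq (GRCm38.p6). The fits were also run on simulated reads, drawn around 1 mean per gene with no control libraries of another profile. That run therefore does not bear on the skin macrophage comparison.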

Additional observations from a re-analysis of the deposited data

How the results depend on the processing

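Of 458 values recomputed under other settings 434 kept their direction and their side of the threshold and 17 changed sign, and of 438 values with 1 library left out 382 kept both and 40 changed sign. None of the values that changed sign belonged to a called gene. Called genes among the 8 numbered 2 for NP against WT in skin macrophages in a model of 4 groups, where 975 of all 11716 genes were called, and 0 to 2 with 1 library left out. The 2 came without control library 3, where 2429 of all genes were called. For skin macrophages against fibroblasts the number was 1 with no variance trend, 0 with the replicate block and 1 to 2 with 1 library left out, and for the skin difference of the NP effect it was 0 to 2 with 1 library left out, the 2 again without control library 3, where 1412 of all 12574 genes were called. Deviations of libraries with the same number correlated at -0.0511 to 0.143 and not every pair was above 0.1, so the numbers were not taken to pair libraries, and the block is given only here: Ccnd2 and Cdkn1c lost their calls in skin macrophages against fibroblasts (adjusted p = 0.217 and 0.0982). The cause of these shifts was not tested. Over all genes the calls between NP and WT numbered 59 in lung macrophages (0 to 68 under other settings, 11 without WT library 2, 12 without WT library 3 and up to 70 with another library left out), and 0 in skin macrophages (up to 975 under other settings and up to 2429 with 1 library left out).

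The log2 differences that changed sign were small or uncalled. Under quantile normalisation these were Ccnd2 in lung fibroblasts (-0.0256), Cdk4 in skin macrophages (-0.0785) and Ccnd3 between skin cell types (-0.00213). Without control macrophage libraries 1 and 5, NP minus WT in skin macrophages was 0.00825 for Ccnd1, -0.18 for Cdk4 and -0.70 for Cdk6, and macrophages minus fibroblasts was -0.12 for Ccnd3 and 0.36 for Cdk6. Median-of-ratios scaling gave 0.0292 for Cdkn1a in skin macrophages, and 0.0569 for Cdk4 and 0.0483 for Cdk6 between skin cell types. The replicate block gave -0.00219 for Cdk4 in skin macrophages, 0.17 for Ccnd2, -0.19 for Ccnd3 and -0.0781 for Cdk4 in skin fibroblasts, and 0.00952 for Cdk4 and 0.20 for Cdk6 between skin cell types.

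With 1 library left out, NP minus WT in lung macrophages ranged from -0.833 to 0.0443 for Ccnd1, -0.381 to 0.0526 for Ccnd2, -0.14 to 0.10 for Cdk4, -0.574 to 0.0740 for Cdk6 and -0.47 to 0.20 for Cdkn1a. In lung fibroblasts it ranged from -0.14 to 1.09 for Ccnd1, -0.12 to 0.15 for Ccnd2, -0.165 to 0.238 for Ccnd3, -0.433 to 0.0279 for Cdk4 and -0.20 to 0.49 for Cdkn1a. In skin macrophages it ranged from -0.325 to 0.121 for Ccnd1, -0.0407 to 0.113 for Cdk4 and -0.39 to 0.28 for Cdkn1a. In skin fibroblasts it ranged from -0.32 to 0.18 for Ccnd2, -0.22 to 0.30 for Ccnd3, -0.0639 to 0.300 for Cdk4, -0.14 to 0.41 for Cdk6, -0.0354 to 0.458 for Cdkn1a and -0.681 to 0.0554 for Cdkn1c. Skin macrophages minus fibroblasts ranged from -0.0727 to 0.217 for Ccnd3, -0.117 to 0.0328 for Cdk4 and -0.29 to 0.14 for Cdk6. With the longest transcript as the length 27 of 64 shares per kilobase moved by 1 SD or more. Lung depth limits Ccnd1 in fibroblasts and Cdkn1c in macrophages, at 0 to 3 reads a library, and the single macrophage-profile control limits the skin macrophage comparison.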
